A study of Mus musculus with 3 samples.

Results

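Glucose breakdown was followed through 10 genes, the glucose transporter Slc2a1 and 9 enzymes of glycolysis and lactate formation (Hk2, Pfkp, Aldoa, Gapdh, Pgk1, Pgam1, Eno1, Pkm and Ldha), in single T cell precursors of the mouse thymus. The members were chosen by symbol as steps of the pathway, with earlier results of these data known, and all 10 were found among the 27734 genes listed in every run, and all 10 passed the filter on low counts. The data are unique molecule (UMI) counts from 3 droplet libraries of C57BL/6 thymocytes, each made once from 4 pooled thymi of mice labelled week 6, with no genetic change or drug in any sample. The first run held total double negative (DN) cells and TCRγδ+ cells, the second held sorted DN1 and DN2 cells, and the third held DN1 plus DN2, DN3 and TCRγδ+ cells sorted apart and mixed. Sorting removed cells stained for CD4, CD8, B220, CD11b, CD11c, NK1.1 or TCRβ, and in the second run also those stained for TCRγδ. Cells were kept if between 500 and 5000 genes were found in them and no more than 7% of UMIs were mitochondrial, which left 5516, 8852 and 7511 cells in the first, the second and the third run, 21879 of 23283 in all.

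Glucose enters cells through transporters such as the product of Slc2a1 and is split in the cytosol into pyruvate, with a small yield of ATP. Lactate dehydrogenase then turns pyruvate into lactate and returns the oxidised cofactor that the Gapdh step needs, so that the pathway can run fast without the mitochondria. In the thymus, precursors pass through DN1 (including the early thymic progenitor, ETP), DN2a, DN2b, DN3 and DN4, with proliferation before T lineage commitment and again after β-selection, while many DN3 cells rest. Dividing lymphocytes are known for high glycolysis, and MYC and the hypoxia factor HIF1 are textbook activators of its genes.

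Both activators bind short DNA motifs, so 250 bases upstream of a RefSeq transcript start of 4 members are printed to show which of these letters they hold. The Ldha, Aldoa and Gapdh windows lie inside the gene spans given below, downstream of the outermost annotated start. The Pgk1 window lies just upstream of its gene span. Sequences are 5′ to 3′ on the gene's strand, from RefSeq promoter windows on GRCm38.p6. Capitals mark the hypoxia element cores ACGTG and GCGTG on either strand. The letters of ACGTG, but not those of GCGTG, also lie within CACGTG, the E-box that MYC binds. Ldha was chosen for its 2 E-boxes, Pgk1 and Aldoa for their hypoxia cores, and Gapdh as the most abundant member. None of the 4 windows overlapped an annotated exon of its own gene, and exons of genes other than the members were not searched.

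Ldha, chr7:46845554-46845803, + strand: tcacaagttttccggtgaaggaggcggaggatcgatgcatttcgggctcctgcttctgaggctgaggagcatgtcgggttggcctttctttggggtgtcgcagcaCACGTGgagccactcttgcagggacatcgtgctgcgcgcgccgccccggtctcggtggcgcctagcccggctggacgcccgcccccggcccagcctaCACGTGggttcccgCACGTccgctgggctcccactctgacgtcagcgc

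Pgk1, chrX:106186850-106187099, + strand: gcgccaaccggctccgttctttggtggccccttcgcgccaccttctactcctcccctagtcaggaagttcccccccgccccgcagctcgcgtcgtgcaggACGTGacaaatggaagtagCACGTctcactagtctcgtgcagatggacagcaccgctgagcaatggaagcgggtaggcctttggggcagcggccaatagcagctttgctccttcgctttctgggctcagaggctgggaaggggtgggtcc

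Aldoa, chr7:126799255-126799504, - strand: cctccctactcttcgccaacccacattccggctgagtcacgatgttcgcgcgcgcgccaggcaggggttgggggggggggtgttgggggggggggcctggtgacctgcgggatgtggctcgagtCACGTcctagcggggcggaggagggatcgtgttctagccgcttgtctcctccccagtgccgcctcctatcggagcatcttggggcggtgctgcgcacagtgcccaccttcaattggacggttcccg

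Gapdh, chr6:125165774-125166023, - strand: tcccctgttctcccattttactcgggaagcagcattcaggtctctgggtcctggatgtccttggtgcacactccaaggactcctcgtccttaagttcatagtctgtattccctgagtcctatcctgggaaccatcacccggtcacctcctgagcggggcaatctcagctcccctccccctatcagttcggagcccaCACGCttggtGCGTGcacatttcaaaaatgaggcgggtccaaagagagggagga

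Of the 10 members, 1 (Ldha) held CACGTG in a window, 7 held ACGTG, 6 held GCGTG and 8 held the GC box GGGCGG, searched on both strands in 1 to 3 windows a gene. Of all 27025 genes with a window (32851 windows), 6.86% held CACGTG, 18.5% ACGTG, 30.9% GCGTG and 35.4% GGGCGG. Aldoa, Eno1, Pkm and Ldha had more than 1 window, which gives more places for a match. The member counts and these shares therefore do not cover equal lengths for each gene. The E-box holds ACGTG on both strands, so the first and second of these counts overlap. A match describes letters only.

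Cells were placed in stage gates by the UMIs of a few marker genes. Each cell took the first gate it met, and gates for B-like and myeloid-like cells came first. The gate of Il2rb, Nkg7 and Klrd1 described below came next. Cells with Il2ra, Cpa3 and Nkg7 but no Kit could therefore leave the DN2a-like and DN2b-like gates. That gate held 1331 and 688 cycling cells in the second and the third run, against 529 and 382 in the DN2a-like gate. DN2a-like cells had Il2ra and either Kit or Cpa3 but no Ptcra, Rag1 or Rag2. DN2b-like cells had Il2ra, Kit or Cpa3, and at least 1 UMI of Ptcra, Rag1 or Rag2. DN3-like cells had Il2ra and Ptcra without Kit or Cpa3, and γδ-like cells had at least 3 UMIs of Trdc without Il2ra, Ptcra, Trac, Kit or Cpa3. Cycling cells had at least 0.2% of their UMIs on 36 genes of DNA replication and mitosis, with at least 3 of these genes found, and resting cells had under 0.1%. The libraries did not hold only what their sort names: the second run, sorted for DN1 and DN2, still held 847 DN3-like and 264 γδ-like cells by transcripts, the latter without surface TCRγδ by that sort, so results on these gates are also given without it. Bcl11b, a marker of commitment, was at 683, 429 and 714 CPM (counts per 1000000 UMIs) in resting DN2a-like cells of the 3 runs and at 789, 513 and 1023 CPM in resting DN3-like cells, so the DN2a-like gate was not low in Bcl11b and is named here by its rule. Resting γδ-like cells carried Sox13, a γδ lineage factor, at 91.8, 141 and 312 CPM against 9.84 to 20.6 CPM in resting DN3-like cells. Cycling γδ-like cells of the first run had Sox13 at 16.0 CPM and the CD8 gene Cd8b1 at 126 CPM, against their label, and enter no tested comparison. They are drawn in the figures of levels and isozyme shares, and their sum is part of the shared fit and of the correlations.

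The cycling and resting cells also differed in ways beside the members. Cycling DN3-like cells held a median of 8773, 8385 and 16652 UMIs in the 3 runs and resting ones 3047, 4192 and 7359. The median mitochondrial share was 2.58% to 2.95% in cycling and 3.80% to 3.84% in resting DN3-like cells. The summed level of 7 dissociation stress genes was 371, 2590 and 1206 CPM in resting and 228, 1355 and 605 CPM in cycling DN3-like cells. Summed markers of innate lymphocytes (6 genes) stood at 167, 272 and 154 CPM in resting and 14.7, 48.1 and 29.2 CPM in cycling DN3-like cells, and those of T commitment (10 genes) at 8342, 8796 and 7554 against 4743, 7333 and 5426 CPM. Stromal markers, with at least 3 of 5 genes at 0, stood at 122, 86.1 and 130 against 43.5, 61.6 and 63.8 CPM. B cell markers (4 genes) reached at most 14.5 CPM and erythroid ones (5 genes) at most 16.0 CPM in either state of that gate. In resting DN2a-like cells the erythroid list stood at 0, 252 and 447 CPM, against 2.43, 137 and 60.4 CPM in cycle. In resting DN2b-like cells it stood at 0, 104 and 98.7 CPM, against 4.08, 37.0 and 23.7 CPM. The B cell list was at 359 CPM in resting and 26.9 CPM in cycling DN2b-like cells of the first run and at most 19.9 CPM in the other sums of those 2 gates. The part of these differences in the results below was not tested. Resting and cycling cells of 1 gate came from the same library, so a run is the unit (n = 3 runs), p-values are those of the edgeR quasi-likelihood test adjusted by Benjamini-Hochberg over all genes tested, and each library's pooled thymi are not told apart. Intervals on single levels are exact 95% Poisson intervals and cover counting error only.

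Levels in these 3′ libraries count molecules, so they can be set side by side between genes, apart from differences in capture. Over all kept cells, Gapdh was the highest member, at 1612, 1576 and 1667 CPM in the 3 runs. Ldha followed in the first, the second and the third run at 1259, 636 and 380 CPM, and Pkm at 687, 490 and 307 CPM. Aldoa stood between 166 and 255 CPM, Eno1 between 105 and 230 CPM and Pgam1 between 127 and 219 CPM, and the order of these 3 differed between runs. The regulated upper steps and the transporter were low: Pfkp stood at 22.1 to 31.6 CPM, Hk2 at 11.6 to 15.4 CPM and Slc2a1 at 6.85 to 8.71 CPM. Pgk1 was the member least alike between runs, at 30.1 and 24.1 CPM in the first 2 runs and 188 CPM in the third. Its near-identical copy Pgk1-rs7 was listed in the first 2 runs, with 113 and 32 UMIs, and not in the third. Whether reads of Pgk1 were shared or dropped in those runs was not tested. The runs also differed in sort and in the genes listed, and these differences cannot be told apart. Pgk1 values are therefore compared only within a run. Eno1 likewise has a near-identical copy, Eno1b, which held 125 to 379 UMIs a run against 8166 to 9067 for Eno1.

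**Figure D1:**
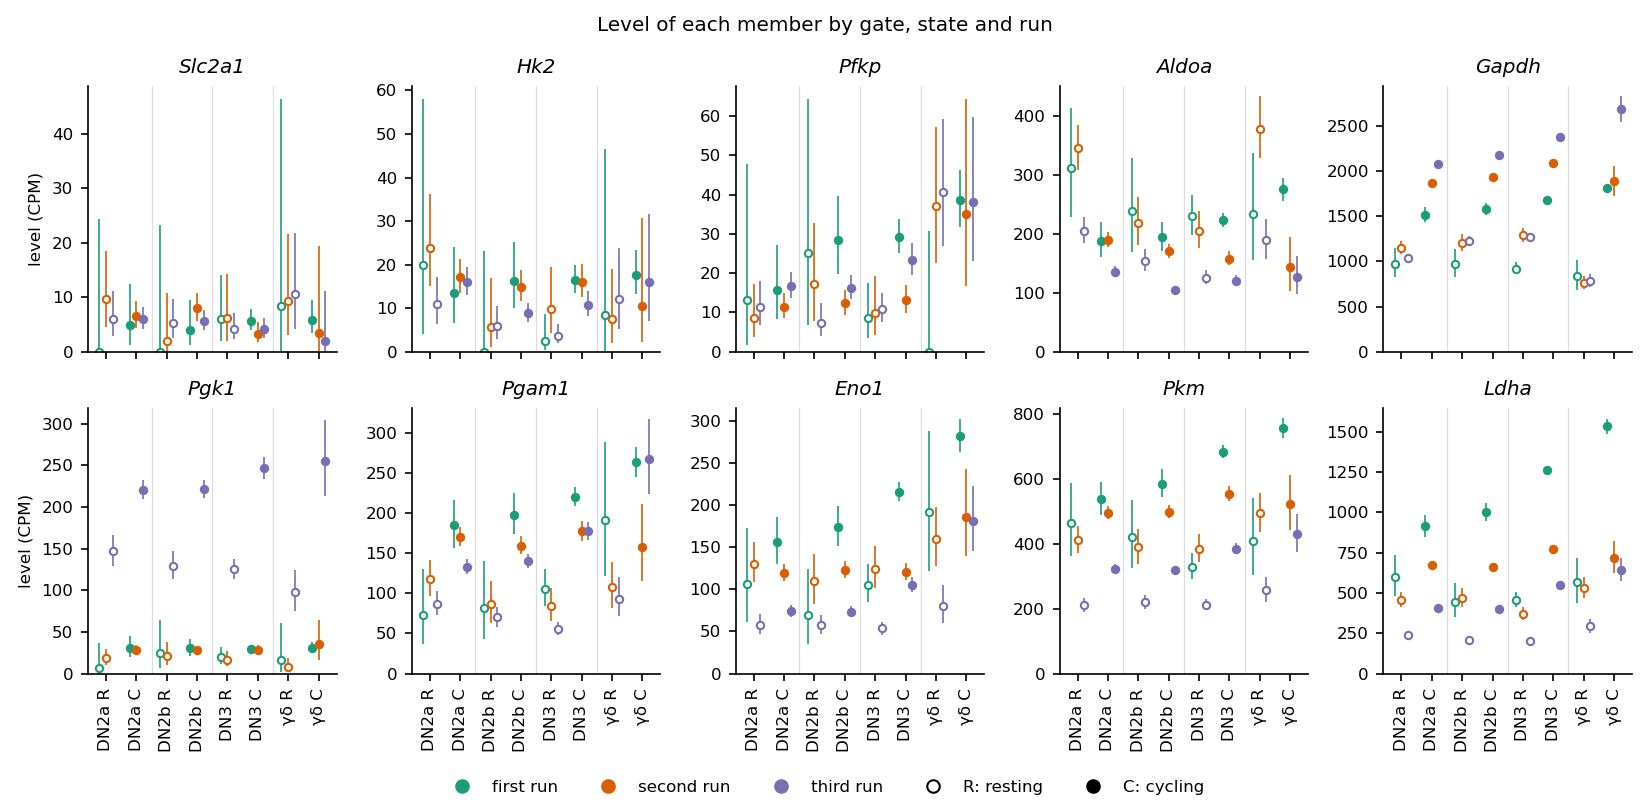
Level of each member (CPM, linear axis from 0) in resting (R, open) and cycling (C, filled) cells of 4 gates. Each point is 1 run and each bar its exact 95% Poisson interval. Cycling γδ-like cells of the first run did not match their label. Ldha, Gapdh and Pgam1 stand higher in cycling than in resting DN3-like cells in all 3 runs, and Aldoa and Slc2a1 do not.

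In the DN2a-like, DN2b-like and DN3-like gates, cycling cells held more glycolysis transcripts for their UMIs than resting cells of the same stage. The summed level of the 10 members in DN2a-like cells was 2565, 2675 and 2011 CPM at rest and 3561, 3585 and 3404 CPM in cycle in the first, the second and the third run. In DN2b-like cells it was 2284, 2522 and 2089 CPM at rest and 3812, 3613 and 3470 CPM in cycle. In DN3-like cells it was 2182, 2499 and 2058 CPM at rest and 4357, 3932 and 4001 CPM in cycle. The 2 states did not overlap between runs in any of the 3 gates.

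Member by member, 8 of 10 rose in cycling DN3-like cells and none fell, where 20.3% of all 9873 genes tested rose and 26.7% fell. The median log2 fold change of the members was 0.92, and that of all genes tested was -0.13. In DN2b-like cells 6 rose and none fell, beside 15.3% and 13.5% of all genes, with medians of 0.80 and -0.07. In DN2a-like cells 5 rose and 1 fell, beside 14.0% and 10.4% of all genes, with medians of 0.51 and -0.06. The members that rose in all 3 gates were Gapdh, Pgk1, Pgam1, Pkm and Ldha, the steps from glyceraldehyde phosphate down to lactate apart from Eno1. Without the second run the DN3-like count stayed at 8. Without the third run, the deepest, it was 6, with Pfkp and Eno1 past the threshold no longer, the DN2b-like count was 3 and the DN2a-like count was 1 (Gapdh, log2 fold change 0.69, adjusted p = 0.011). When gates and states were set from cells thinned to 2000 UMIs, 6 members rose in DN3-like cells and 5 in DN2a-like cells. Without the run as a block, 3 rose in DN3-like cells, 2 in DN2b-like cells and 2 in DN2a-like cells.

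**Figure D2:**
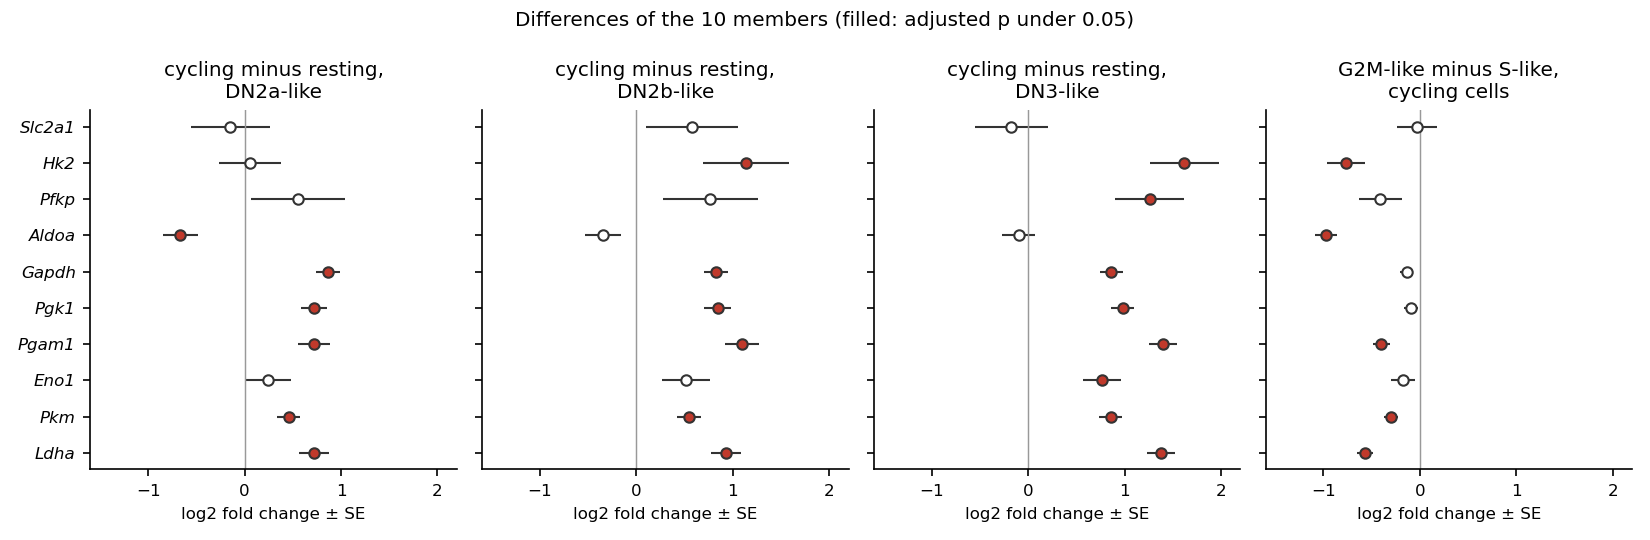
Log2 fold change (edgeR) of each member with its standard error, for cycling minus resting cells in 3 gates and for G2M-like minus S-like cycling cells. Filled points have an adjusted p under 0.05. In DN3-like cells 8 points are filled to the right of 0, and in the phase comparison 5 are filled to the left of 0.

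Slc2a1 (ENSMUSG00000028645, chr4:119108711-119137983, + strand) encodes GLUT1, the main glucose carrier of activated T cells. In DN3-like cells it stood at 6.06, 6.15 and 4.27 CPM at rest and 5.67, 3.21 and 4.12 CPM in cycle, from 5 to 36 UMIs a sum. The states overlapped, and its log2 fold change of -0.17 ± 0.38 (SE, n = 3) did not pass the test (adjusted p = 0.735). Nor did it pass in DN2a-like cells (-0.15 ± 0.41, adjusted p = 0.844) or DN2b-like cells (0.58 ± 0.48, adjusted p = 0.387). With so few UMIs, a difference of these sizes was not detectable.

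Hk2 (ENSMUSG00000000628, chr6:82725025-82774454, - strand) encodes the inducible hexokinase that traps glucose as glucose 6-phosphate. It stood at 2.42, 9.84 and 3.70 CPM in resting and at 16.5, 16.0 and 10.8 CPM in cycling DN3-like cells. The resting values rest on few Hk2 UMIs, in sums of 824957, 813103 and 3515544 UMIs of all genes. The cycling values all lay above the resting ones, a log2 fold change of 1.62 ± 0.35 (n = 3, adjusted p = 0.000166), which is 3.08-fold. In DN2a-like cells it stood at 19.9, 23.9 and 10.9 CPM at rest and 13.4, 17.1 and 16.0 CPM in cycle, with overlap and no call (0.05 ± 0.32, adjusted p = 0.930). Its rise in DN2b-like cells (1.14 ± 0.44, adjusted p = 0.0471) was lost when any 1 run was left out, with adjusted p between 0.0945 and 0.183.

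Pfkp (ENSMUSG00000021196, chr13:6579768-6648777, - strand) encodes the platelet form of phosphofructokinase, the committed step. It stood at 8.49, 9.84 and 10.8 CPM in resting and 29.3, 13.1 and 23.3 CPM in cycling DN3-like cells, without overlap, a rise of 1.26 ± 0.36 on the log2 scale (adjusted p = 0.00314). Without the third run this was 1.27 with an adjusted p of 0.118. In DN2a-like (0.56 ± 0.49, adjusted p = 0.441) and DN2b-like cells (0.77 ± 0.49, adjusted p = 0.246) it did not pass the test.

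Aldoa (ENSMUSG00000030695, chr7:126795234-126800751, - strand) encodes aldolase A, which splits fructose bisphosphate, and it was the member that went the other way. In DN2a-like cells it stood at 311, 346 and 205 CPM at rest and 189, 190 and 136 CPM in cycle, lower in each run, and fell by 0.67 on the log2 scale (SE 0.18, adjusted p = 0.00402). This call was lost without the second run (-0.56, adjusted p = 0.0538) and without the third (-0.81, adjusted p = 0.0566). The molecules of Aldoa per cell were nearly alike, at 1.08, 0.98 and 1.14 times the resting number in the 3 runs, while the number of all UMIs per cell was higher in cycle. In DN3-like cells Aldoa stood at 230, 205 and 126 CPM at rest and 223, 158 and 120 CPM in cycle (-0.10 ± 0.17, adjusted p = 0.666).

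The triose steps rose. Gapdh (ENSMUSG00000057666, chr6:125161715-125166467, - strand), glyceraldehyde phosphate dehydrogenase, stood at 920, 1290 and 1264 CPM in resting and 1673, 2088 and 2379 CPM in cycling DN3-like cells. Its log2 fold changes of 0.87 ± 0.12, 0.82 ± 0.12 and 0.86 ± 0.12 in DN2a-like, DN2b-like and DN3-like cells passed the test (adjusted p = 2.11e-07, 5.36e-07 and 4.55e-08). Gapdh was the one member called in each of the 3 gates with any 1 run left out. Pgk1 (ENSMUSG00000062070, chrX:106187100-106203699, + strand), which makes the first ATP of the pathway, stood at 19.4, 16.0 and 125 CPM at rest and 29.6, 28.4 and 247 CPM in cycle in DN3-like cells. It was higher in cycle within each run, by 0.98 ± 0.12 on the log2 scale (adjusted p = 3.65e-09), on 13 to 1378 UMIs a sum.

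Pgam1 (ENSMUSG00000011752, chr19:41911923-41918660, + strand), phosphoglycerate mutase, stood at 105, 83.6 and 55.5 CPM in resting and 220, 178 and 178 CPM in cycling DN3-like cells. The rise was 1.40 ± 0.15 on the log2 scale (adjusted p = 3.87e-11), which is 2.63-fold, with 0.72 ± 0.16 in DN2a-like and 1.10 ± 0.18 in DN2b-like cells. Eno1 (ENSMUSG00000063524, chr4:150236721-150248879, + strand), enolase 1, stood at 105, 124 and 53.5 CPM at rest and 216, 121 and 106 CPM in cycle. It was higher in cycle in the first and the third run and not in the second (0.77 ± 0.20, adjusted p = 0.00143), and was no longer called without the third run (0.61, adjusted p = 0.130).

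Pkm (ENSMUSG00000032294, chr9:59656368-59679375, + strand), pyruvate kinase, stood at 329, 384 and 212 CPM in resting and 683, 554 and 385 CPM in cycling DN3-like cells, higher in each run (0.86 ± 0.12, adjusted p = 3.49e-08). These tags do not tell its 2 splice forms apart. Ldha (ENSMUSG00000063229, chr7:46841475-46855627, + strand), the subunit of lactate dehydrogenase that favours lactate, stood at 456, 370 and 202 CPM at rest and 1261, 773 and 548 CPM in cycle. Within each run the cycling level was the higher, a 2.60-fold difference (log2 1.38 ± 0.15, adjusted p = 9.57e-11). In DN2a-like cells the Ldha difference was 0.72 ± 0.16 (adjusted p = 0.000344) and in DN2b-like cells 0.93 ± 0.16 (adjusted p = 6.97e-06).

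The DN3-like estimates were larger than the DN2a-like ones for 8 members, but no member passed the test of that difference, in which 0.0203% of all genes were called higher and 0.111% lower. The lowest adjusted p were those of Hk2 (difference 1.57 ± 0.49, adjusted p = 0.219), Ldha (0.66 ± 0.22, adjusted p = 0.252) and Pgam1 (0.68 ± 0.22, adjusted p = 0.256). Over all genes, edgeR called 13 in this comparison and 963 had an unadjusted p under 0.05. With only the 4 groups of this comparison in the fit, 2 members were called higher.

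The levels of cells between rest and full cycle are described here. DN3-like cells were binned by the share of their UMIs on the 36 cycle genes. In the first run the summed members were at 2121, 2220 and 2387 CPM in the 3 bins below 0.2%, at 3532 CPM between 0.2% and 0.4%, at 4526 CPM between 0.4% and 0.8%, and at 4391 CPM above. In the second run they stood at 2421, 2542 and 2665 CPM, then 3505, 4289 and 3808 CPM, and in the third at 2054, 2059 and 2162 CPM, then 3322, 4570 and 3784 CPM. In each run the level moved less over the bins below 0.2% than across that limit, and it was lower in the last bin than in the one before it. DN3-like cells that were neither resting nor cycling held medians of 3046, 4238 and 7304 UMIs in the 3 runs. Cycling ones held 8773, 8385 and 16652 UMIs. The part of depth in these bins was not tested.

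Ldha stood at 430, 472, 429, 951, 1348 and 1225 CPM from the lowest to the highest bin of the first run, at 410, 348, 432, 696, 944 and 657 CPM in the second and at 213, 199, 217, 416, 688 and 463 CPM in the third. Aldoa stood at 236, 227, 253, 251, 235 and 186 CPM, at 212, 202, 231, 208, 189 and 110 CPM and at 138, 122, 124, 147, 136 and 71.4 CPM. In all 3 runs Ldha was highest between 0.4% and 0.8%, and Aldoa was lowest where cycle genes took the largest share. These bins hold 66 to 463 cells each and are given as a description, with no test.

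**Figure D3:**
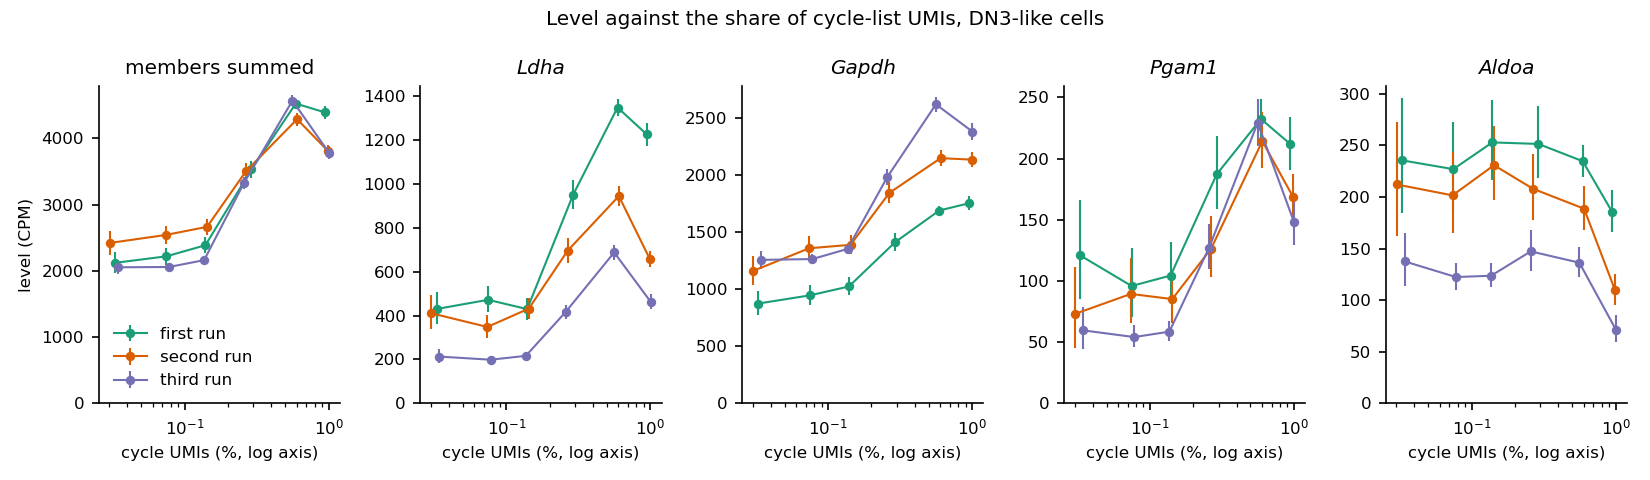
Summed members and 4 single members in DN3-like cells (CPM, linear axis from 0) against the median share of UMIs on cycle genes in each of 6 bins (log axis). Lines join the bins of 1 run and bars are exact 95% Poisson intervals. The summed level is lowest below 0.2% and highest between 0.4% and 0.8%, and Aldoa is lowest in the last bin.

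Among cycling cells, those with more mitosis than replication UMIs (G2M-like) held less of 5 members for their UMIs than S-like cells. This is averaged over the DN2a-like, DN2b-like and DN3-like gates, and no member was higher. The levels are shares of UMIs, and molecules per cell were not tested between the phases. Of all 10312 genes tested, 14.2% fell and 12.4% rose. Aldoa fell by 0.97 (SE 0.11, adjusted p = 2.83e-10), Hk2 by 0.77 (SE 0.19, adjusted p = 0.00164), Ldha by 0.57 (SE 0.08, adjusted p = 1.49e-07), Pgam1 by 0.40 (SE 0.09, adjusted p = 0.000239) and Pkm by 0.30 (SE 0.07, adjusted p = 0.000984) on the log2 scale. The Hk2 call was lost without the third run (-0.55, adjusted p = 0.136).

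Aldoa in DN3-like cells stood at 244, 200 and 143 CPM in S-like and 182, 100.8 and 55.2 CPM in G2M-like cells, lower in each run. Ldha stood at 1334, 859 and 593 CPM in S-like and 1117, 654 and 419 CPM in G2M-like cells. The 3 runs showed the same direction for both. Gapdh (-0.14 ± 0.07, adjusted p = 0.113), Pgk1 (-0.09 ± 0.07, adjusted p = 0.375) and Slc2a1 (-0.03 ± 0.21, adjusted p = 0.948) did not pass the test. G2M-like cells held more UMIs, with medians of 10736, 10353 and 20766 against 8019, 7292 and 14988 in DN3-like cells, and the part of this in the result was not tested.

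Along the stages at rest, Hk2 and Aldoa differed and 8 members did not pass the test. Between resting DN3-like and resting DN2a-like cells, 2 members were lower in DN3-like cells and none was higher, beside 4.28% and 3.95% of all genes. Hk2 was lower by 1.69 ± 0.44 (adjusted p = 0.00754) and Aldoa by 0.59 ± 0.19 (adjusted p = 0.0377), in the values given above. Hk2 had few UMIs in resting DN3-like cells. Neither call held without the second run (adjusted p = 0.109 and 0.162) or without the third (adjusted p = 0.254 and 0.551). The summed members of resting DN2a-like, DN2b-like and DN3-like cells lay between 2011 and 2675 CPM in all runs.

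In cycling cells, Ldha was the 1 member called between DN3-like and DN2a-like cells, beside 5.02% of all genes higher and 8.68% lower. It stood at 914, 674 and 406 CPM in cycling DN2a-like cells, below the cycling DN3-like values of the same runs, a log2 difference of 0.42 ± 0.14 (adjusted p = 0.0382). It was not called without the first (0.35, adjusted p = 0.189) or the third run (0.44, adjusted p = 0.364), nor with gates from thinned cells (0.04, adjusted p = 0.968).

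The first and the last stage could not be tested. Resting ETP-like cells (Kit, Flt3 or Cd34 without Il2ra) numbered 19 in the second run and 29 in the third, and the summed members stood at 1999 CPM (95% interval 1750 to 2273) and 1724 CPM (1577 to 1881). The same cells held 1697 and 348 CPM of erythroid markers, 25.8 and 423 CPM of B cell markers and 6488 and 4424 CPM of stress genes, whose part in these levels was not tested. Cycling ETP-like cells stood at 3638 and 2981 CPM in those runs. DN4-like cells (CD8 or CD4 transcripts without Il2ra) numbered 868 in cycle in the first run and at most 21 in any other group shown, and those 868 cells held 5027 CPM (4980 to 5075) against 4357 CPM in cycling DN3-like cells of that library. Ldha stood at 1537 CPM in those DN4-like cells, Gapdh at 1827 CPM and Pkm at 772 CPM. With 1 library, the last difference has no replicate check.

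**Figure D4:**
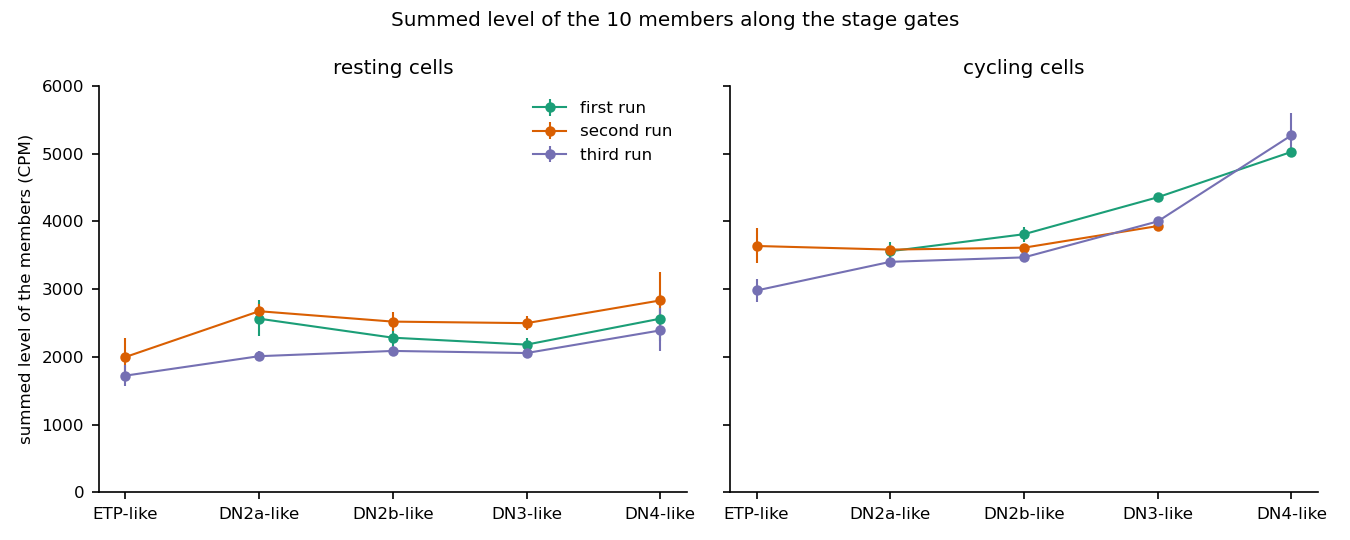
Summed level of the 10 members (CPM, axis from 0) in 5 stage gates, resting cells on the left and cycling cells on the right. Each line is 1 run and bars are exact 95% Poisson intervals. Resting cells of the DN2a-like to DN3-like gates lie between 2011 and 2675 CPM and cycling ones between 3404 and 4357 CPM.

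Between resting γδ-like and resting DN3-like cells, 2 members were higher and 1 was lower in γδ-like cells, which is near the 11.1% and 10.0% of all genes. Pfkp stood at 0, 37.1 and 40.7 CPM in γδ-like cells of the 3 runs, the 0 in 119837 UMIs, which by a floor of 3 counts allows up to 25.03 CPM, and it was higher by 1.86 ± 0.52 on the log2 scale (adjusted p = 0.00675). Aldoa stood at 234, 379 and 190 CPM against 230, 205 and 126 CPM (0.57 ± 0.20, adjusted p = 0.0310). Gapdh stood at 834, 763 and 786 CPM, below the DN3-like value in each run (-0.62 ± 0.13, adjusted p = 0.000232).

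Without the second run, whose sort left out TCRγδ+ cells, Gapdh was still lower (-0.52, adjusted p = 0.00579), and Pfkp (1.66, adjusted p = 0.0638) and Aldoa (0.35, adjusted p = 0.359) did not pass the test. Without the third run none of the 3 passed, with adjusted p from 0.108 to 0.242. Ldha (0.43 ± 0.17, adjusted p = 0.0568) and Pgam1 (0.57 ± 0.22, adjusted p = 0.0520) missed the threshold. γδ-like cells were shallower, with medians of 3127, 2771 and 5579 UMIs. Their stress genes stood at 317, 3744 and 1819 CPM, against 371, 2590 and 1206 CPM in resting DN3-like cells. The part of depth and stress in these results was not tested.

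A further gate, applied before the γδ-like and DN gates, took cells with at least 2 UMIs of Il2rb, Nkg7 and Klrd1 and no Ptcra or Kit. It held 45.7% of the second run and did not match effector lymphocytes alone, since Il2ra stood at 83.0 to 279 CPM in its resting cells and Nkg7 at 166 to 324 CPM in resting DN3-like cells. Against resting γδ-like cells, Pgk1 was higher by 0.73 ± 0.18 (adjusted p = 0.00586) and Eno1 by 0.91 ± 0.24 (adjusted p = 0.0103), beside 4.15% of all genes higher and 3.44% lower. Eno1 stood at 157, 311 and 155 CPM against 192, 160 and 79.9 CPM in γδ-like cells, higher in the second and the third run only. Neither passed without the second run (adjusted p = 0.241 and 0.233) or without the third (adjusted p = 0.532 and 0.455). With Nkg7 left out of the gate and Il2ra and Cpa3 required to be absent, a rule set after seeing the data, 6 members were higher, beside 14.0% of all genes, among them Eno1 (1.40, adjusted p = 1.20e-08), Slc2a1 (1.24, adjusted p = 0.00712) and Pfkp (1.12, adjusted p = 0.000463). The first run held fewer than 10 resting cells of this changed gate. These calls therefore rest on 2 runs, and neither could be left out. By its sort, the γδ-like cells of the second run lacked surface TCRγδ. That gate held 1324 and 812 resting cells in the second and the third run, with summed members at 2676 and 2234 CPM. Its few cycling cells, 37 and 65, stood at 4746 CPM (95% interval 4476 to 5028) and 4393 CPM (4267 to 4522), above the resting cells in both runs.

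The members are 1 of several isozymes at some steps, and in DN3-like cells Ldha and Hk2 took a larger share of their step in cycle than at rest in each run. Ldha made 68.1%, 68.6% and 49.5% of Ldha plus Ldhb UMIs in resting DN3-like cells and 90.8%, 89.8% and 83.4% in cycling ones, without overlap of the exact binomial intervals in any run. Ldhb, the subunit that favours pyruvate, fell by 0.85 in cycle (SE 0.14, adjusted p = 2.07e-06). In resting cells Ldhb was higher in DN3-like than in DN2a-like cells by 1.84 ± 0.20 (adjusted p = 3.37e-09), and Ldha made 88.2%, 90.2% and 82.3% in resting and 93.4%, 95.2% and 91.8% in cycling DN2a-like cells.

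Hk2 made 7.41%, 19.0% and 5.49% of hexokinase UMIs (Hk1, Hk2 and Hk3) in resting and 37.5%, 33.2% and 25.4% in cycling DN3-like cells. The resting shares rest on few Hk2 UMIs. In DN2a-like cells the Hk2 share was not higher in each run, at 3 of 6 UMIs, 43.1% and 16.5% at rest and 11 of 50 UMIs, 37.3% and 29.4% in cycle. The constitutive Hk1 fell in cycling DN3-like cells by 0.67 (SE 0.15, adjusted p = 0.000243). Pfkp was a minority of phosphofructokinase in DN3-like cells, at 11.1%, 12.3% and 17.5% at rest and 27.9%, 14.6% and 30.6% in cycle, with Pfkl the most abundant form. It made 37.0% and 48.2% in resting γδ-like cells of the second and the third run, on 54 and 56 UMIs. In the first run no Pfkp UMI was found in those cells. Aldoa was nearly the whole of aldolase, at 93.1% to 100% in these groups. The shares of single sums cover counting error only.

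**Figure D5:**
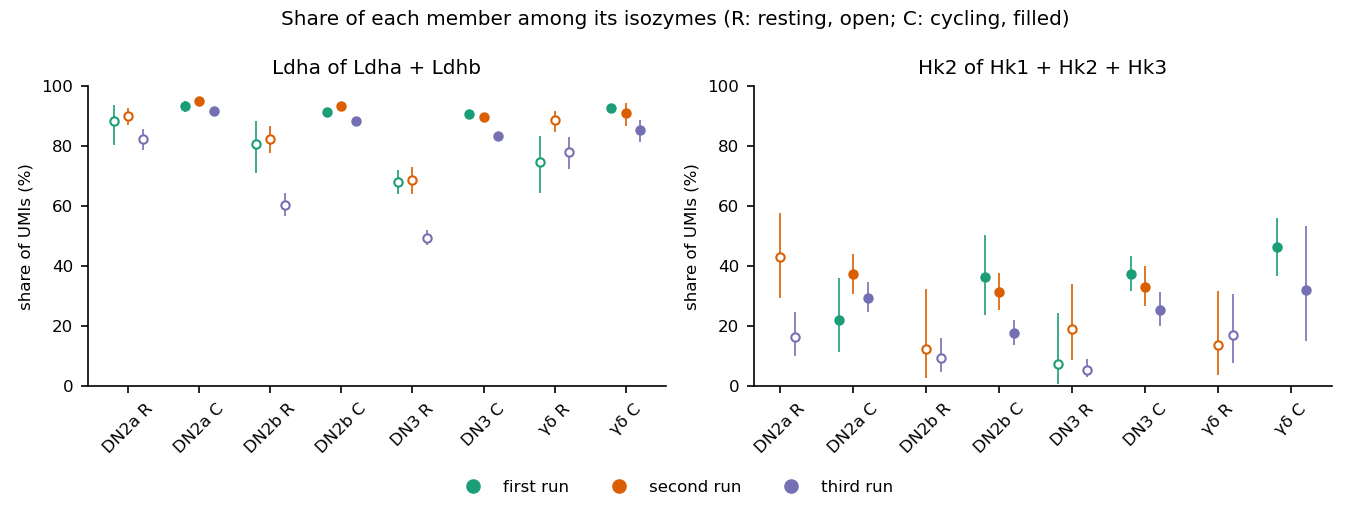
Share of Ldha in Ldha plus Ldhb UMIs (left) and of Hk2 in hexokinase UMIs (right), in percent from 0 to 100, for 4 gates at rest (open) and in cycle (filled). Points are runs, bars exact 95% binomial intervals, and sums under 20 UMIs are left out. Cycling γδ-like cells of the first run did not match their label. In DN3-like cells the Ldha share is 49.5% to 68.6% at rest and 83.4% to 90.8% in cycle.

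The other genes of the pathway did not all move with the members. Tpi1, triose phosphate isomerase, rose in cycle by 1.41 ± 0.18, 1.20 ± 0.18 and 1.48 ± 0.15 in DN2a-like, DN2b-like and DN3-like cells (adjusted p = 1.08e-08, 5.37e-07 and 9.24e-12). Gpi1, glucose phosphate isomerase, did not pass the test in the first 2 gates and was lower by 0.28 ± 0.11 in DN3-like cells (adjusted p = 0.0346). Of 15 tested genes among 19 other isozymes and steps, 1 rose and 5 fell in cycling DN3-like cells, where 20.3% of all genes rose and 26.7% fell, with a median of -0.28 beside -0.13 for all genes. Aldoc fell by 1.37 (SE 0.34) and Pfkfb4, which makes an activator of phosphofructokinase, by 1.0 (SE 0.33). Both were low, with 8 to 33 UMIs of Aldoc and 3 to 45 of Pfkfb4 in each resting or cycling DN3-like sum.

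Of 13 tested genes of lactate and pyruvate handling (14 listed), 5 rose and 3 fell in cycling DN3-like cells, beside the same 20.3% and 26.7% of all genes. Slc16a1, the lactate carrier MCT1, rose by 1.10 ± 0.16 (adjusted p = 2.56e-07), with 1.30 ± 0.25 in DN2a-like and 0.89 ± 0.22 in DN2b-like cells. The pyruvate dehydrogenase kinases Pdk1 and Pdk2, which switch off pyruvate dehydrogenase, fell by 0.91 (SE 0.16) and 1.27 (SE 0.27). Of the 7 pentose phosphate genes, 2 rose and none fell, against those shares, Tkt (transketolase) by 0.70 ± 0.14 and Rpia by 0.51 ± 0.14.

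Of 21 regulators, 3 rose and 8 fell in cycling DN3-like cells, where 20.3% of all genes rose and 26.7% fell. Those that rose, named after their values were seen, were Rheb (0.64 ± 0.11), Egln1 (0.48 ± 0.18) and Akt1 (0.45 ± 0.16). Myc itself stood at 168, 139 and 88.2 CPM in resting and 154, 138 and 70.8 CPM in cycling DN3-like cells and did not pass the test there (-0.16 ± 0.12, adjusted p = 0.294) or in DN2a-like cells (-0.34 ± 0.15, adjusted p = 0.101), and in DN2b-like cells it fell by 0.43 (SE 0.15, adjusted p = 0.0240). Mycn stood at 24.2, 20.9 and 12.8 CPM in resting and 4.10, 14.0 and 3.59 CPM in cycling DN3-like cells and fell by 1.61 (SE 0.34, adjusted p = 9.19e-05). Mxd4, which opposes MYC at E-boxes, fell in all 3 gates by 1.53, 1.75 and 1.93 (SE 0.15, 0.14 and 0.12) on the log2 scale. Txnip, which lowers glucose uptake, fell by 0.68, 0.67 and 1.13 (SE 0.21, 0.19 and 0.15), and its relative Arrdc4 fell by 1.79 (SE 0.58) in DN2b-like and 1.27 (SE 0.49) in DN3-like cells. Arrdc4 was near the floor, with 2, 3 and 17 UMIs in resting and 7, 9 and 12 UMIs in cycling DN3-like cells. Of 11 tested HIF targets outside glycolysis (14 listed), 2 rose and 3 fell, near the shares over all genes: Mif by 1.19 ± 0.13 and Higd1a by 1.27 ± 0.12 upward, Ddit4 by 1.58 (SE 0.27) and Bnip3l by 0.87 (SE 0.11) downward, among them.

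In resting γδ-like cells against resting DN3-like cells, Hif1a was higher (0.80 ± 0.18, adjusted p = 0.000739) and Myc lower (-1.22 ± 0.21, adjusted p = 1.63e-05). Of 11 HIF targets, 2 were higher and 3 lower, beside 11.1% and 10.0% of all genes, with Ero1l at 2.28 ± 0.31 and Ndrg1 at -3.19 ± 0.45. The carrier Slc2a3 (GLUT3) was higher by 1.5 ± 0.48 (adjusted p = 0.0183), and 3 of 7 pentose phosphate genes were lower beside the same 10.0%, among them Tkt (-1.0 ± 0.19).

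Across the 53 sums of run, gate and state, with each run's mean taken off, the genes most like the summed members among 2821 abundant genes were Set (Pearson r = 0.945), Snrpb (0.945), Ppia (0.942), Slc25a5 (0.942) and Uqcr10 (0.935). The least like were Trp53inp1 (-0.821), Vimp (-0.814), Malat1 (-0.795), Zbtb20 (-0.784) and Xbp1 (-0.761). The sums include B-like or myeloid-like cells besides the T cell gates, and the cycling γδ-like cells of the first run. All sums share libraries and depth, so these values are descriptions, and not of the T cell stages alone. Against the sum of the other 9 members, r was 0.919 for Ldha, 0.899 for Pkm and 0.893 for Pgam1. It was 0.618 for Gapdh, 0.502 for Pgk1, 0.481 for Hk2, 0.415 for Eno1, 0.339 for Pfkp and 0.195 for Slc2a1, and -0.281 for Aldoa, the only member with a negative value.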

How the data were processed

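The authors made 10x 3′ libraries (V2 or V3.1 kit, not said which for each run) and aligned them to mm10 with Cell Ranger, and the third run's file header names version 4.0.0. The deposited matrices hold raw UMI counts per gene and cell, which are counts with no normalization. The libraries held 39947415, 52797915 and 98533329 UMIs. The members and all gene lists were chosen with earlier results of these data known.

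Cells outside 500 to 5000 genes or over 7% mitochondrial UMIs were left out, and no doublet caller was used in the main analysis. Barcodes shared between runs numbered 72, 3 and 0 for the 3 pairs of runs. Counts were summed per run, gate and cycling state, with the B-like and myeloid-like gates included. Sums with at least 20 cells in a run and at least 2 runs were kept, giving 53 sums in 19 groups. They were tested with edgeR 4.0.16 (quasi-likelihood, TMM, filterByExpr, R 4.3.3) with the run as a block, 32 residual degrees of freedom, and a Benjamini-Hochberg threshold of 0.05 over all genes tested. Genes used for gates or cycling state were not tested. All sums share 1 estimate of the spread, and 1 library gives many sums, so p-values measure the spread between sums of these 3 libraries. Sums of 1 run come from the same library and pooled thymi, and the run pairs them for that reason. After the group means were taken off, sums of the same run correlated (median r 0.753, lowest 0.0207, 444 pairs). That step by itself pushes correlations between runs below 0, so those are not read. Levels are CPM over the 27734 genes common to the runs. Precision is given by exact 95% intervals (counting error only).

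The text names the 10 members, Gpi1 and Tpi1 for cycling against resting cells, and the 5 genes most and least like the members. From each pathway list the plan was to name at most 4 called genes with the largest fold change in a comparison. The regulators that rose in cycling DN3-like cells, and Myc in cycling against resting cells, were named in addition. Gene positions are those of GENCODE vM21 and promoters those of RefSeq, both on GRCm38. Scripts were tested on simulated data. DESeq2 1.42.0, other scalings, filters, cell limits, thinned cells, Scrublet, no block and leaving out each run were tried.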

Additional observations from a re-analysis of the deposited data

Results flagged for a closer look

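Cells outside the comparisons carried a clear signal of the members. In the third run, 552 cells with more than 5000 genes were left out by the limit on genes per cell, with a median of 32188.5 UMIs against 8507 in kept cells. Of these, 96.4% were cycling by the rule above, against 31.3% of kept cells. The summed members stood at 4175 CPM (4146 to 4205) in them and at 2991 CPM in the kept cells of that run, beside 4001 CPM in kept cycling DN3-like cells. Ldha stood at 624 CPM and Gapdh at 2278 CPM in the cells over the limit. The first and second run had 3 and 2 such cells. The share of doublets among them was not tested.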

How the results depend on the processing

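The 33 called values of single members kept their sign under every alternative run, and 461 of their 550 alternative values kept sign and side of the threshold. Counts of called members moved more, and the cause was not tested.

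Without the run as a block, although the runs pair the sums, the members higher in cycle were 2 (DN2a-like), 2 (DN2b-like) and 3 (DN3-like) in place of 5, 6 and 8, those lower in G2M-like cells 1 in place of 5, and every other count of called members was 0. With single runs left out, members higher in cycle were 1 to 5 (DN2a-like), 3 to 6 (DN2b-like) and 6 to 8 (DN3-like), and those lower 0 to 1 (DN2a-like) and 0 to 1 (DN2b-like). In DN3-like against DN2a-like cells, 0 to 2 were lower at rest and 0 to 1 higher in cycle. In resting γδ-like against DN3-like cells, 0 to 2 were higher and 0 to 1 lower, and in the Nkg7 gate against γδ-like cells 0 to 3 were higher.

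The count of members higher in cycling DN3-like than DN2a-like cells, 1 as reported, was 0 with thinned cells, with 1 limit of 0.15%, with no upper gene limit and with total counts only, 2 with a mitochondrial limit of 5%, 3 with limits of 0.3% and 0.05%, 4 with at least 50 cells per sum, with the top 8% of Scrublet scores removed and with no filter on low counts, 5 with the gate without Nkg7 and 6 with only the groups compared. For resting γδ-like against DN3-like cells, 2 higher as reported, it was 0 with limits of 0.3% and 0.05%, 4 with at least 50 cells, 5 with the 0.15% limit, DESeq2 size factors, the DESeq2 Wald test, no filter or only the groups compared, and 6 without Nkg7, while the 1 lower became 0 with thinned cells. For the Nkg7 gate against γδ-like cells, 2 higher as reported, it was 1 with thinned cells, the 0.15% limit or only the groups compared, 0 with total counts or the DESeq2 Wald test, and 6 without Nkg7. In resting DN3-like against DN2a-like cells, 2 lower as reported, it was 1 with thinned cells, the 0.15% limit or the DESeq2 Wald test and 0 with limits of 0.3% and 0.05%. With only the groups compared, 1 member was lower in cycling DN2b-like cells and 2 differed more in DN3-like than DN2a-like cells.

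Over all genes, the lowest and highest counts were 429 and 3412 (DN2a-like cycling, 2401 as reported), 497 and 3098 (DN2b-like, 2847), 793 and 4918 (DN3-like, 4636), 0 and 93 (difference of the cycling effects, 13), 68 and 978 (resting DN3-like against DN2a-like, 813), 41 and 1953 (cycling, 1353), 507 and 2553 (γδ-like, 2079), 14 and 2689 (Nkg7 gate, 750) and 446 and 3402 (phase, 2744). The lowest came without the block, but for the 0, which came with thinned cells. Of the called genes, the share that was higher went from 57.4% to 46.5% with DESeq2 size factors (cycling DN2a-like) and, with total counts only, from 48.0% to 36.9% (resting DN3-like against DN2a-like), 36.7% to 22.7% (cycling) and 54.7% to 33.1% (Nkg7 gate, where the median of all genes moved from 0.05 to -0.10).

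The gate without Nkg7 was chosen after seeing the data. DN2b-like and phase comparisons gave no value with thinned cells, and the ETP-like comparison could not be fitted. With 3 runs, and few UMIs of Slc2a1, Hk2 and Pfkp, small differences in these genes were not detectable.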
